A study of Mus musculus with 6 samples.

Results

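Hair follicle stem cells sit in the bulge and the hair germ of the follicle, rest for long periods and rebuild the lower follicle at each round of hair growth. They are recognised by a set of transcription factors, receptors and structural proteins, and 9 of these genes were followed here: the receptors Lgr5 and Lgr6, the surface protein Cd34, the keratin Krt15, and the transcription factors Lhx2, Sox9, Tbx1, Nfatc1 and Tcf7l1. R-spondin binding to LGR receptors slows the removal of Wnt receptors from the cell surface, and TCF factors sit on the target genes of that pathway. The transcription factors of the set keep bulge cells in place, at rest or uncommitted in mouse skin.

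The genes were found by name: every probe set whose only annotated gene symbol is one of the 9 was taken, which gave 18 of 45101 probe sets on the array. All 9 genes were measured, and the probe set that stood for each was above the array's median signal on all 6 arrays. The arrays hold RNA from whole skin of C57BL/6 mice, 3 of genotype WT (wild-type) and 3 of genotype KA (knock-in, source KAB6), with 1 array per sample and biotin-labelled total RNA. The labels do not name the altered gene, and they give no age, sex, body site, hair cycle stage or treatment. Whether each sample is a separate animal is not stated either, so p-values measure only the spread between these 6 samples. Values are MAS5 signals on a linear scale, with the standard deviation over 3 arrays, and differences are knock-in minus wild-type of log2(signal + 16) with the standard error. A difference is called where limma's Benjamini-Hochberg adjusted p over 11670 genes is under 0.05.

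Replicates resembled each other over the tested genes (Pearson's r from 0.975 to 0.983 within wild-type and from 0.979 to 0.985 within knock-in). Keratinocyte genes were bright on every array, with Krt14 at 6250 ± 318 in wild-type and 10382 ± 1237 in knock-in, as the label skin requires. Xist was at 29.7 ± 2.44 in wild-type and 3729.7 ± 282 in knock-in, while the Y-linked genes Eif2s3y, Kdm5d and Uty had differences of -5.06, -3.28 and -3.53. Sex and genotype therefore cannot be told apart in any difference below. The control probe sets for 18S ribosomal RNA were lower in knock-in without overlap at the 5′ end (1848 ± 493 in wild-type, 481 ± 301 in knock-in) and in the middle (1378 ± 350 and 652 ± 255), and overlapped at the 3′ end (399 ± 121 and 265 ± 42.8). Their part in the results was not tested.

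In knock-in skin 6 of the 9 genes fell, 0 rose and the other 3 missed the threshold, beside 16.3% of all genes tested that were called lower and 14.8% that were called higher. The 6 that fell were Lhx2, Lgr5, Krt15, Tcf7l1, Sox9 and Tbx1, and in each of them all 3 knock-in arrays lay below all 3 wild-type arrays, a separation seen in 25.1% of all genes. The median difference of the 9 genes was -0.78, beside -0.02 over all genes tested. The 9 genes were chosen with earlier results of these data known, so the contrast with all genes is a description only. Lgr6, Cd34 and Nfatc1 overlapped between the groups. Whole skin RNA cannot tell fewer stem cells from less of a transcript per cell.

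**Figure D1:**
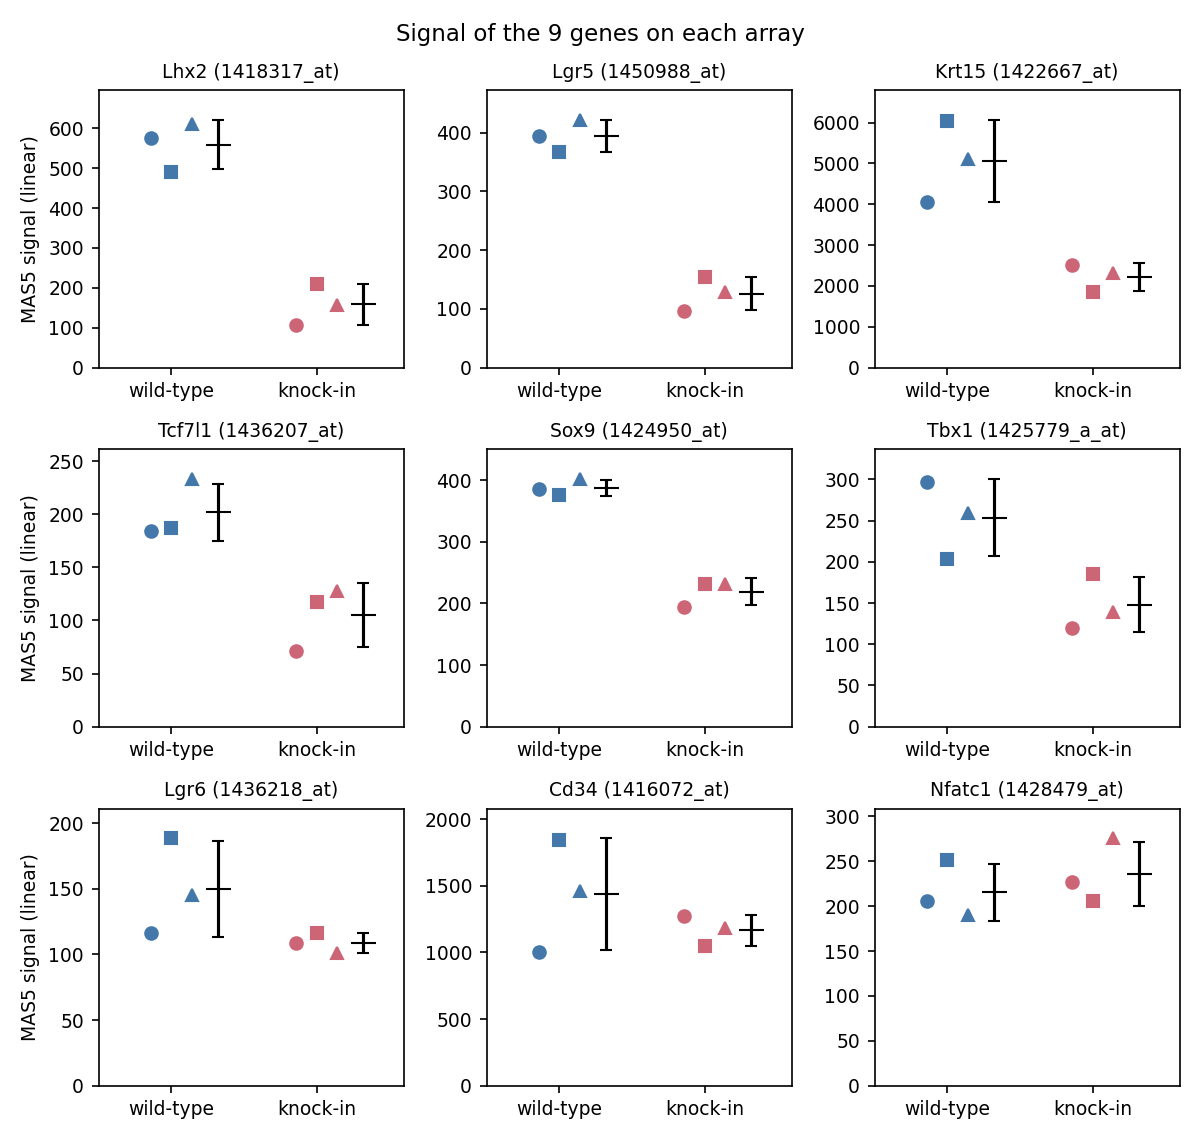
MAS5 signal (linear, from 0) of the probe set that stands for each gene, in wild-type (blue) and knock-in (red), with circles, squares and triangles for replicates 1, 2 and 3 of the labels and the mean and standard deviation in black (n = 3). The 2 groups separate completely in the panels of Lhx2, Lgr5, Krt15, Tcf7l1, Sox9 and Tbx1 and overlap in those of Lgr6, Cd34 and Nfatc1.

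Lgr5, the R-spondin receptor that marks the lower bulge and the hair germ, gave signals of 395, 367 and 421 in wild-type and 96.7, 154 and 128 in knock-in (probe set 1450988_at). Every knock-in array was far under the dimmest wild-type array. The difference was -1.55 ± 0.15 (adjusted p = 2.30e-04, 95% interval -1.89 to -1.20), which is 2.92-fold lower on that scale. A second Lgr5 probe set, 1444519_at, stayed under the median of every array and was not tested. Its signals were 28.5, 23.1 and 28.8 in wild-type and 2.11, 11.6 and 9.51 in knock-in. These too did not overlap, at a level where a fold cannot be trusted.

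Lgr6, the related receptor that marks cells of the isthmus above the bulge, gave 116, 188 and 146 in wild-type and 109, 117 and 101 in knock-in (1436218_at). The groups touched, because wild-type replicate 1 lay level with the knock-in arrays. The difference of -0.39 ± 0.16 did not pass (adjusted p = 0.105), but without wild-type replicate 1 it was -0.54 with an adjusted p of 0.0285. The second Lgr6 probe set, 1427028_at, gave 52.2, 46.8 and 61.0 against 38.8, 39.5 and 42.1. On that probe set the groups did not overlap, yet its difference of -0.30 ± 0.15 did not pass either (adjusted p = 0.153 over 23127 probe sets). Between the receptors, the within-array difference Lgr5 minus Lgr6 was 1.33 ± 0.38 (SD) on the log2 scale in wild-type but 0.17 ± 0.27 in knock-in. This change of -1.16 came without overlap between the groups, and the two-sided exact permutation test gave p = 0.1, the smallest that 3 against 3 arrays allow (0.167 adjusted over the 5 gene pairs compared). 

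The genes around these receptors were described from a list of 17 that act in LGR signalling or in the supply and removal of Wnt receptors. Of the 14 tested, 9 fell, 0 rose and 5 did not pass, with a median difference of -0.51. Without wild-type replicate 3, 4 of them were lower. The third LGR receptor, Lgr4, went from 1099 ± 131 to 723 ± 122 (-0.60 ± 0.14, adjusted p = 0.0119), and without wild-type replicate 3 its adjusted p was 0.0511. Among the Frizzled receptors, which bind Wnt ligands, Fzd7 went from 537 ± 19.5 to 275 ± 34.9 and Fzd3 from 182 ± 3.36 to 81.3 ± 18.7, differences of -0.93 ± 0.11 and -1.04 ± 0.15. Znrf3, a ubiquitin ligase that clears Frizzled receptors and is itself bound through LGR receptors, went from 258 ± 26.3 to 159 ± 22.1 (-0.65 ± 0.13). The co-receptor Lrp6 fell by 0.43 on the log2 scale. Fzd10, Fzd5 and Rnf43, a relative of Znrf3, had differences of -0.92, -0.95 and -0.97 and each lost its call without 1 array, with adjusted p of 0.0507, 0.0689 and 0.0514 in turn (wild-type replicate 3 left out for the Frizzled genes, knock-in replicate 3 for Rnf43). Fzd10 also lost it without knock-in replicate 3 (0.0528) and as the mean over its probe sets (-0.33, adjusted p = 0.174). Rnf43 was above the array median on the wild-type arrays alone (46.4, 57.1 and 68.1, against 11.2, 34.6 and 21.3 in knock-in), so it could enter the test only by being higher there, and without any one wild-type array it was not tested. The ligands Rspo1 and Rspo3 had differences of 0.40 and -0.29 and did not pass, while Rspo2 and Rspo4 were too dim to test.

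Lhx2, a LIM-homeodomain factor that keeps bulge cells undifferentiated, had the lowest difference of the 9 genes (1418317_at, its only probe set). Its signals were 575, 490.1 and 610.1 in wild-type and 107, 209.9 and 158 in knock-in. The knock-in arrays varied more than the wild-type arrays, with coefficients of variation of 32.5% and 11.1%, but the gap between the groups was much wider than either spread. The difference was -1.76 ± 0.20 (adjusted p = 5.02e-04), a fold of 3.38 lower, and only 0.891% of all genes tested had a lower difference. The within-array difference Lgr5 minus Lhx2 moved by 0.21, with overlap between the groups (exact permutation p = 0.2, where 0.1 is the smallest possible, adjusted 0.2).

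Tcf7l1, an HMG-box factor of the bulge and outer root sheath that holds Wnt target genes down, was read by 2 probe sets that did not match in size. Probe set 1436207_at gave 185, 187 and 233 in wild-type and 71.0, 118 and 127 in knock-in, a difference of -0.87 ± 0.20 (adjusted p = 0.0107). Without wild-type replicate 3 the adjusted p was 0.0508. Probe set 1450117_at gave 169, 189 and 148 against 111, 176 and 124, where knock-in replicate 2 lay among the wild-type arrays. Its difference was -0.29 ± 0.17 (adjusted p = 0.223 over probe sets), and without knock-in replicate 2 it was -0.47 with an adjusted p of 0.0493. So the size of the Tcf7l1 change depends on the probe set, and the mean over both gave -0.58.

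Of 14 other genes of TCF/LEF signalling, 11 were tested, of which 4 fell, 0 rose and 7 did not pass, with a median of -0.39. Without wild-type replicate 1 or 3, 2 were lower. Lef1, the activating relative of Tcf7l1 in the hair matrix, went from 218 ± 22.1 to 76.6 ± 27.2 (-1.37 ± 0.21, adjusted p = 1.83e-03). Tcf7l1 minus Lef1 within arrays rose from -0.11 ± 0.18 to 0.40 ± 0.22 (SD), without overlap between the groups (exact permutation p = 0.1, the smallest possible, adjusted 0.167). The co-repressor Tle4 and the Wnt feedback inhibitor Nkd1 had differences of -0.61 ± 0.09 and -0.74 ± 0.17 (adjusted p = 2.00e-03 and 0.0117). Nkd1 was above the array median on the wild-type arrays alone (68.2, 49.1 and 54.9, against 29.5, 32.2 and 22.1 in knock-in), with the same limit on its test as Rnf43. Tcf7l2, at -0.39 ± 0.12, had an adjusted p of 0.0407 and lost its call without any array but knock-in replicate 2 (0.0595 to 0.133). The Wnt target Axin2 had a difference of -0.43 and did not pass (0.058), though it did without knock-in replicate 2 (0.0261).

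Sox9, an HMG-box factor needed to set up the bulge and found through the outer root sheath, was the least variable of the 9 genes in wild-type (coefficient of variation 3.35%). Its signals were 386, 376 and 402 in wild-type and 194, 232 and 232 in knock-in (1424950_at). The groups were far apart for their spread, and the difference was -0.78 ± 0.10 (adjusted p = 8.93e-04). Probe set 1451538_at, with 206, 213 and 264 against 106, 129 and 127, gave -0.83 ± 0.13 (adjusted p = 1.93e-03 over probe sets). The third Sox9 probe set, 1433889_at, lay between 3.40 and 17.98 on all arrays, was too dim to test and overlapped between the groups.

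Tbx1, a T-box factor that supports the self-renewal of bulge cells, gave 297, 204 and 259 in wild-type and 120, 185 and 139 in knock-in (1425779_a_at). The groups came close, with wild-type replicate 2 just above knock-in replicate 2. The difference was -0.72 ± 0.18 (adjusted p = 0.0157), the weakest of the 6 calls. The adjusted p was 0.0609 without wild-type replicate 3, 0.0522 without knock-in replicate 1, 0.0599 without knock-in replicate 3 and 0.0563 with the replicate number as a block. Tbx1 is also a gene of head and neck muscle, and of 8 tested skeletal muscle genes 4 fell, 0 rose and 4 did not pass. The summed signals of the 10 on the array were 36796 to 54830 in wild-type and 22944 to 39449 in knock-in. These sums overlapped between the groups, and no muscle gene was listed at 0. The median difference of the muscle genes was -0.78, and -0.35 without the filter on dim probe sets. Pvalb, Myh4 and Ckm had differences of -3.40, -1.75 and -1.05 without overlap. Tnnt3, at -0.89 with overlap, had an adjusted p of 0.0324 and lost its call without replicate 2 or 3 of either group (0.0875 to 0.119). Acta1 and Myh1 had 0.0064 and 0.30 and did not pass. The part of muscle in the Tbx1 result was not tested.

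Krt15, a type I keratin of the bulge and of resting basal cells, gave 4048, 6039 and 5096 in wild-type and 2505, 1845 and 2321 in knock-in (1422667_at). The difference was -1.17 ± 0.16 (adjusted p = 1.24e-03), a fold of 2.26 lower. The basal keratins Krt14 and Krt5 moved the other way, with differences of 0.73 ± 0.11 (adjusted p = 1.68e-03) and 0.52 ± 0.09 (adjusted p = 3.87e-03). Of 9 basal epidermis genes 3 rose (Krt14, Krt5 and the laminin chain Lamb3, at 1.28), the adhesion protein Cdh1 fell by 0.63 on the log2 scale and 5 did not pass. Centring each array on these basal genes, a scaling chosen after the data were seen, moved the median of all genes by -0.28 and called 36.1% of all genes lower. Under it Krt15 had a difference of -1.46 and 8 of the 9 stem cell genes were called lower, Lgr6 and Cd34 included (adjusted p = 0.00663 and 0.0284). The within-array difference Sox9 minus Krt15 moved by 0.39, with overlap between the groups (exact permutation p = 0.2, where 0.1 is the smallest possible, adjusted 0.2).

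Cd34, a sialomucin on the surface of mouse bulge cells, gave 1002, 1842 and 1464 in wild-type and 1271, 1045 and 1179 in knock-in (1416072_at, its only probe set). Wild-type replicate 1 lay below all knock-in arrays, and the wild-type arrays varied by 29.3%. The difference was -0.26 ± 0.20 (adjusted p = 0.350, 95% interval -0.71 to 0.19). Without wild-type replicate 1 it was -0.49 with an adjusted p of 0.0299. The within-array difference Lhx2 minus Cd34 was -1.30 ± 0.55 (SD) in wild-type and -2.80 ± 0.58 in knock-in, without overlap (exact permutation p = 0.1, the smallest possible, adjusted 0.167).

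Cd34 is also made by blood endothelium and dermal fibroblasts. Of 12 blood endothelial genes 11 rose, 0 fell and 1 did not pass, with a median difference of 1.16, and 7 rose without knock-in replicate 3. Of the 12 genes, Tie1 was above the array median on the knock-in arrays alone and could enter the test only by being higher there. The vessel genes Emcn and Pecam1 went from 103 ± 16.2 and 114 ± 16.8 to 435 ± 27.6 and 342 ± 29.3, and Egfl7 and Sox18 had differences of 1.30 and 1.65. The summed signal of the endothelial genes was 1119 to 1478 in wild-type and 3043 to 3437 in knock-in, and none was listed at 0. Of 9 tested fibroblast genes 2 rose (Pdgfra, at 1.44, and Pi16, at 1.73), 2 fell (Dpp4 and Col1a1, both at -0.52, with adjusted p of 0.0542 and 0.0809 without wild-type replicate 3) and 5 did not pass, with sums of 38374 to 49344 and 40905 to 46957. The part of either cell type in the Cd34 signal was not tested.

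Nfatc1, a calcineurin-dependent factor that keeps bulge cells at rest, was read by 5 probe sets, of which 3 were tested. The brightest, 1428479_at, gave 206, 251 and 189.8 in wild-type and 227, 206 and 276 in knock-in, a difference of 0.12 ± 0.14 (adjusted p = 0.546, 95% interval -0.20 to 0.45). The values were fully mixed. Probe sets 1417621_at and 1425761_a_at had differences of -0.13 ± 0.14 and -0.40 ± 0.16 (adjusted p = 0.535 and 0.0951 over probe sets), the second with 92.6, 122 and 89.7 against 85.0, 58.4 and 75.7 and no overlap. The mean over all probe sets was -0.18 (adjusted p = 0.296), so Nfatc1 has no settled sign. Probe sets 1447084_at and 1447085_s_at were too dim to test. Of 10 other NFAT and calcineurin genes 1 was called higher and 0 lower. That gene was Nfatc4, which went from 133 ± 8.69 to 290.4 ± 13.8 (1.04 ± 0.10, adjusted p = 2.13e-04).

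**Figure D2:**
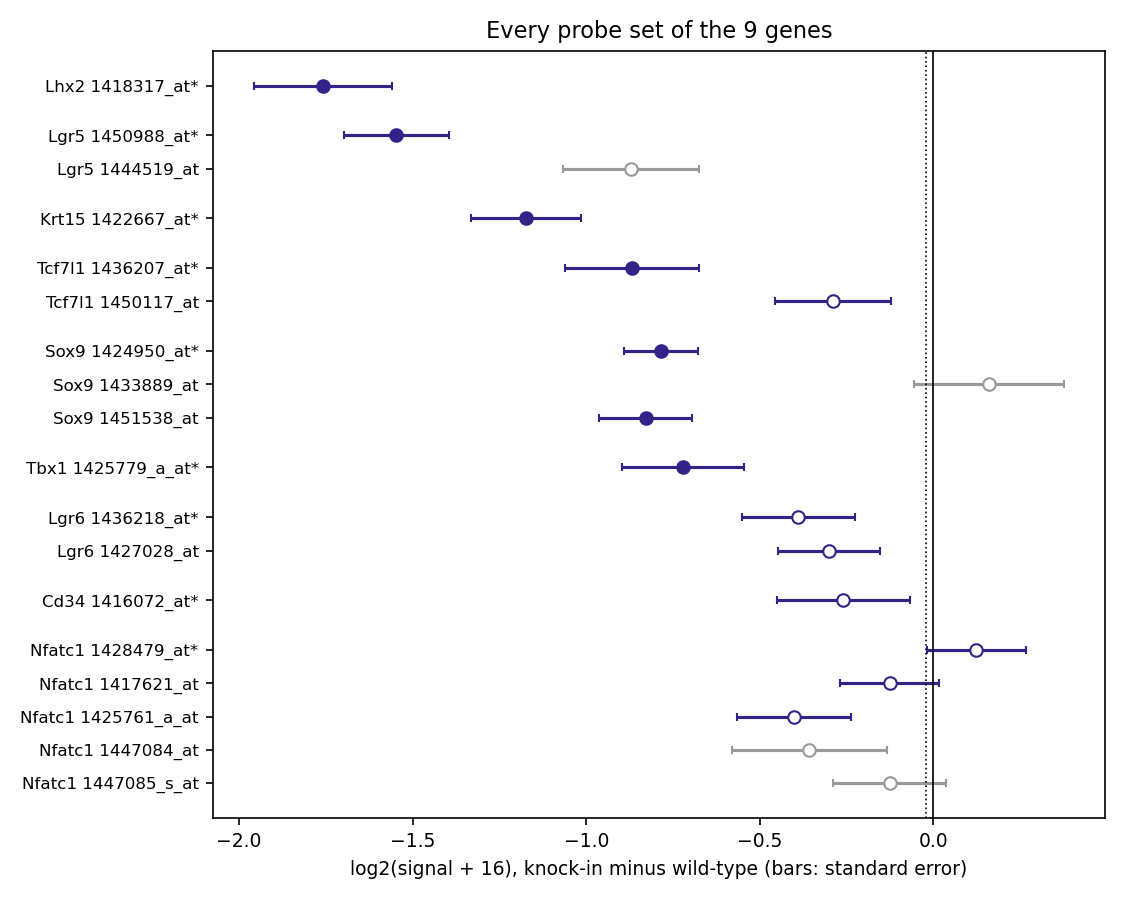
Difference of log2(signal + 16), knock-in minus wild-type, with its standard error, for each of the 18 probe sets, grouped by gene and with an asterisk at the one that stands for the gene. Filled points passed the threshold over 23127 probe sets, open points did not, and grey points are dim probe sets shown from a fit without the filter and not called; the dotted line is the median of all genes (-0.02).

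At the level of probe sets, 14 of the 18 were tested, and 7 of these were called lower and 0 higher, beside 17.3% and 13% of all probe sets. The 9 genes ordered by difference ran from Lhx2 over Lgr5, Krt15, Tcf7l1, Sox9, Tbx1, Lgr6 and Cd34 to Nfatc1, and the 95% intervals of neighbours in this order all overlapped. Lhx2, Lgr5 and Krt15 were the ones with a call at least 2-fold lower, which 3.98% of all genes reached. In 9 of the tested probe sets all knock-in arrays lay below all wild-type arrays, as in 27.1% of all probe sets.

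Within the groups the genes did not vary together. Lgr5, Sox9, Lhx2 and Tbx1 were lowest on wild-type replicate 2 and, among knock-in arrays, lowest on replicate 1 and highest on replicate 2. For Sox9 the last is a near tie, with 231.59 on knock-in replicate 2 and 231.53 on replicate 3. Cd34 and Krt15 ran the other way, highest on wild-type replicate 2 and, among knock-in arrays, highest on replicate 1 and lowest on replicate 2. The 21 hair matrix and shaft genes, which are made by the growing lower follicle, followed the first pattern. Their mean log2 value, set to 0 at the wild-type mean, was 0.14, -0.30 and 0.16 on wild-type replicates 1, 2 and 3 and -1.93, -1.12 and -1.45 on knock-in replicates 1, 2 and 3. All 21 of these genes fell, with a median of -1.44, and Krt35, Krt33b and Krt31, keratins of the hair shaft, had differences of -2.21, -2.17 and -2.15. Gata3, which specifies the inner root sheath, went from 756 ± 89.0 to 357 ± 20.7. The summed signal of this list was 71261 to 91402 in wild-type and 22898 to 41760 in knock-in, and none of its tested genes was listed at 0. Lhx2 and Lgr5 fell by more than the median of this list and Krt15 by less. The part of the growing follicle in the stem cell results was not tested.

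Other genes of the bulge and outer root sheath were split. Of 22 tested, 11 fell, 5 rose and 6 did not pass, with a median of -0.44, and without knock-in replicate 3, 7 were lower. Those that rose were Itga6, Krt14, Krt5, Postn and Dkk3. Krt14 and Krt5 are also counted among the basal epidermis genes above, so the lists are not separate there. The factor Nfib, which acts in bulge cells, went from 1279 ± 68.3 to 621 ± 23.3 (-1.02 ± 0.08, adjusted p = 9.80e-05), Foxc1, a factor of bulge quiescence, from 507 ± 67.8 to 281 ± 51.1 (-0.83 ± 0.15) and Sox21 from 374 ± 82.3 to 162 ± 43.1 (-1.14 ± 0.20). Tgfb2, a signal that stirs hair germ cells at the start of growth, went from 186 ± 49.1 to 63.7 ± 15.6 (-1.33 ± 0.22), and the secreted binding protein Igfbp5 had a difference of -1.42 ± 0.19, which was -0.59 (adjusted p = 0.241) once probe sets of less specific design (names in _s_at or _x_at) were left out. Itga6, an integrin by which basal and bulge cells hold to the basement membrane, rose with Krt14 and Krt5, from 872 ± 49.8 to 1847 ± 248 (1.06 ± 0.11). Of 11 genes of the hair germ and upper follicle 6 fell, 0 rose and 5 did not pass, with a median of -0.48. Prdm1 and Defb6 had differences of -0.73 ± 0.13 and -0.78 ± 0.16. Lrig1, a marker of the upper follicle, had -0.54 ± 0.13, with an adjusted p of 0.0141 that became 0.0515 without knock-in replicate 1 and 0.144 as the mean over its probe sets (-0.24), and Trps1 had -0.65 ± 0.16, with 0.0167 that became 0.0508 without wild-type replicate 1. Leaving out replicate 1 of either group left 3 of these genes lower.

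**Figure D3:**
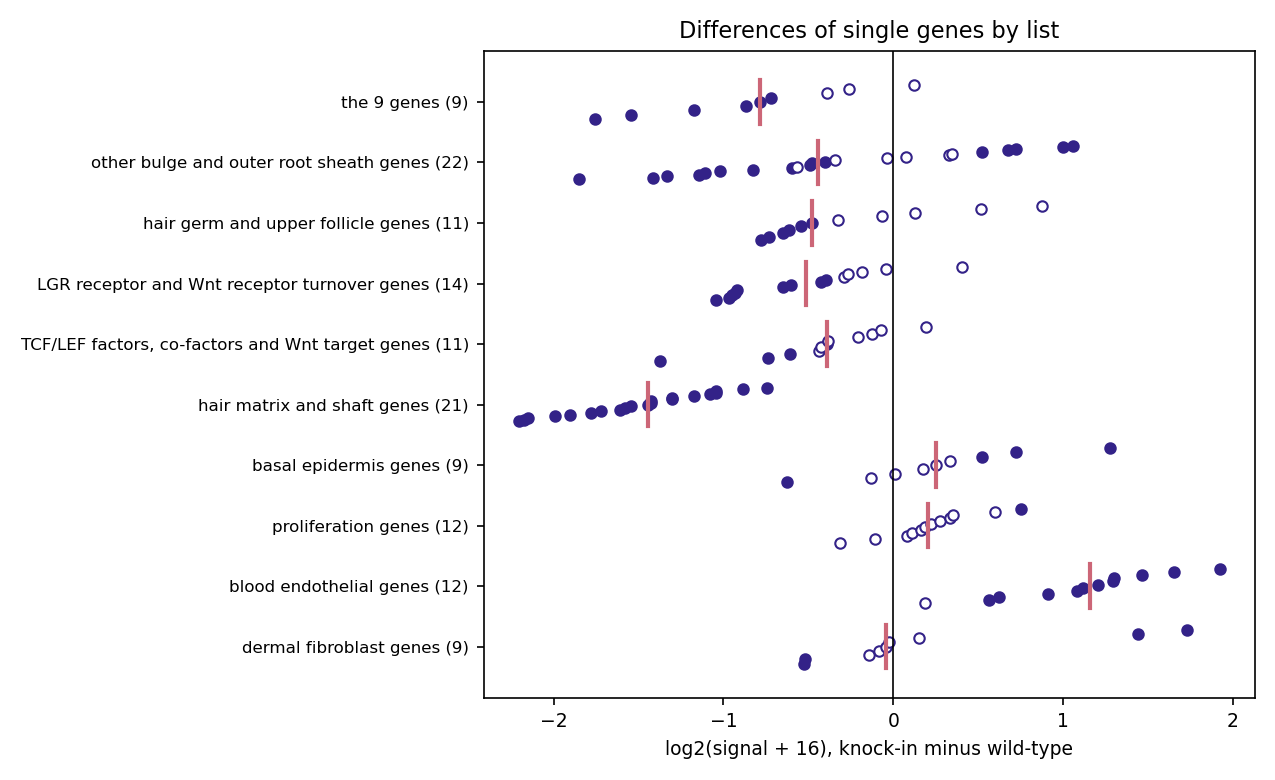
Difference of log2(signal + 16), knock-in minus wild-type, of each tested gene (points) in the 9 stem cell genes and 9 other lists, with the number tested in parentheses, filled where called over 11670 genes, and the list's median as a red bar. The medians run from -1.44 for hair matrix and shaft genes through -0.78 for the 9 genes to 1.16 for blood endothelial genes.

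Among 12 tested genes of cell division 1 was called higher and 0 lower, with a median of 0.20. That gene, Cdk1, had a difference of 0.75 ± 0.23 (adjusted p = 0.0343) and lost its call without any array but wild-type replicate 1 (0.0536 to 0.127). Without wild-type replicate 1, 5 of them were higher. Mki67, a label of cycling cells, was at 769 ± 241 and 698 ± 116.

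For each of the 9 genes the genes with the most similar profile were sought, by the root mean square difference of log2 values over the 6 arrays after centring each gene on its own mean. The nearest to Lgr5 were Rhpn2 (0.0713) and the hair keratin-associated gene Krtap7-1 (0.0888), and the nearest to Lhx2 were Kcnk2 (0.0871) and Mycn (0.0885). Sox9 was nearest to Mtmr4 (0.0319) and Etv3 (0.0546), and Krt15 to Plpp7 (0.0501) and 4933431E20Rik (0.0858). Tbx1 lay nearest to Mybl2 (0.0614) and Lypd6b (0.0651), and Tcf7l1 to Arhgef19 (0.0975) and Farp1 (0.105). Among the genes that did not pass, Lgr6 was nearest to Mapre2 (0.0599) and Zfp318 (0.0608), Cd34 to Eepd1 (0.0577) and Lamb2 (0.0705), and Nfatc1 to Map2k5 (0.0344) and Ifi30 (0.0427). With 2 groups of 3 arrays such a distance is set mostly by the difference between the groups. It also depends on the probe set. Mtmr4 had a difference of -0.77, which was -0.34 once _s_at and _x_at probe sets were left out. Mybl2 and Farp1 had -0.71 and -0.75, which were -0.44 and -0.39 as means over their probe sets.

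Promoters were set beside the values because Lhx2 and Tcf7l1 fell and Cd34 did not pass. Each is the RefSeq window of 300 bases (build GRCm38.p6), 250 before and 50 from the start site on, given 5′ to 3′ on the gene's strand with every CpG in capitals. The windows are chr2:38339031-38339330 on the plus strand for Lhx2 (the first of 2 start sites), chr6:72788996-72789295 on the minus strand for Tcf7l1 and chr1:194938571-194938870 on the plus strand for Cd34.
Lhx2: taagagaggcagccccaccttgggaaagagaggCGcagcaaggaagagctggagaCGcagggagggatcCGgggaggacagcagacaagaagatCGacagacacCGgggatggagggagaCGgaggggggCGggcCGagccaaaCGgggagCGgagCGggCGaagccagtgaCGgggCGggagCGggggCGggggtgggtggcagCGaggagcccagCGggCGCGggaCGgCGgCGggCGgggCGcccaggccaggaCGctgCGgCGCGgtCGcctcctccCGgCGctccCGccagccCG
Tcf7l1: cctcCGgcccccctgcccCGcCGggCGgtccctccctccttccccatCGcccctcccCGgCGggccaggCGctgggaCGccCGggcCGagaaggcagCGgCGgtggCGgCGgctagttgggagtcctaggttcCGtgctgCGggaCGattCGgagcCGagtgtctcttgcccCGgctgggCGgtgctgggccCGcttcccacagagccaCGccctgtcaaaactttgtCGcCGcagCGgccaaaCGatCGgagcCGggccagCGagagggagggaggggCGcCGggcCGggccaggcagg
Cd34: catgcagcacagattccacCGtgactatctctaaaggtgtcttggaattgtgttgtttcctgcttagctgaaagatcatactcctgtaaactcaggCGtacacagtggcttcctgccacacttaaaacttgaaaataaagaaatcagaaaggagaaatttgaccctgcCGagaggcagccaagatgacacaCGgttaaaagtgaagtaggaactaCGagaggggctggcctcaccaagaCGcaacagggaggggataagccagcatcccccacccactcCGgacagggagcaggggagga

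The Lhx2 and Tcf7l1 windows hold 34 CpGs each, and the Cd34 window holds 7. Their G and C content is 74.7%, 75.3% and 50%, beside a median of 52.7% over 32851 promoters. Lgr6, which did not pass, has 24 CpGs and 67.7%, and the 2 start sites of Tbx1, which fell, have 69.0% and 58.3%. For 5 of the 9 genes 7 windows were used. Lgr5, Sox9 and Krt15 had no window, and Nfatc1 was left out of the search. A TCF/LEF motif was searched on both strands in the forms CTTTGAA or CTTTGAT or CTTTGTA or CTTTGTT and matched none of the 7, beside 16.9% of all promoters. TAATTA, a word of LIM-homeodomain factors, also matched none, beside 5.29%. The SOX words ACAATG and ACAAAG, the second of which overlaps the TCF words, matched the Lgr6 and Tcf7l1 windows, beside 28.6% of all promoters. The NFAT word GGAAAA matched the second Lhx2 window, beside 23.4%.

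**Figure D4:**
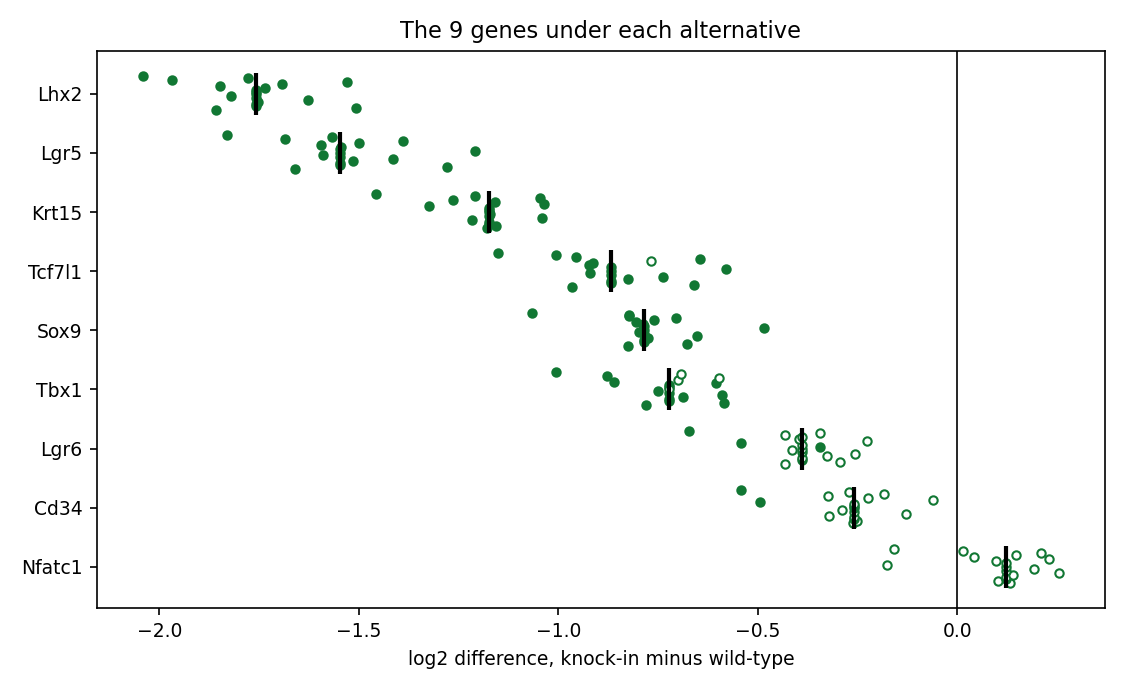
Log2 difference, knock-in minus wild-type, of each of the 9 genes as reported (black bar) and under 18 alternatives of processing, including each array left out (points), filled where the adjusted p was under 0.05. Lhx2, Lgr5, Krt15 and Sox9 are filled throughout, Tcf7l1 and Tbx1 lose the call under some, and Nfatc1 lies on both sides of 0.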

How the data were processed

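The authors summarised each probe set to a MAS5 intensity on a linear scale, per the submitters' processing notes, with the software version not given in the sources used here. The 2% trimmed mean was 150 on every array, so the deposited intensity values were already scaled, and they were used as they stood. There are no detection calls. Symbols came from the platform annotation, with 34945 probe sets carrying 1 symbol and 64 control probe sets left out of the tests. A gene was represented by its brightest probe set (mean over 6 arrays). Genes above the array's median on at least 3 arrays were kept (11670 of 18193). Differences of log2(signal + 16) were tested with limma 3.58.1 in R 4.3.3 (lmFit, then eBayes with trend, two-sided, Benjamini-Hochberg over all genes), and every probe set in a second such fit over 23127 probe sets. The offset understates the change of dim genes. The procedure was tested on simulated data. The median standard error was 0.13, and precision is limited by 3 arrays per group. The members and the 15 lists were chosen with earlier results of these data known. From each list up to 4 genes, or 8 for bulge and LGR genes, with the smallest unadjusted p were to be named. Axin2, Rspo1, Rspo2, Rspo3, Rspo4 and Mki67 were added after their values were seen. Acta1, Myh1, Pecam1, Tie1, Prom1, Itgax, Ptprc, Postn and Dkk3 were also named outside that rule. Replicate numbers gave correlations of deviations from the group means of -0.25, -0.41 and -0.02, so they do not pair the arrays. Arrays of unlike number reached 0.35 (wild-type replicate 2 with knock-in replicate 1) and 0.29 (wild-type replicate 1 with knock-in replicate 2). The alternatives were other offsets, filters, normalizations, variance priors, array weights, the replicate block, other probe set rules and each array left out.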

Additional observations from a re-analysis of the deposited data

How the results depend on the processing

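Lhx2, Lgr5, Krt15 and Sox9 kept their direction and their call under all 18 alternatives run on the genes, with adjusted p of at most 0.0206. The count of stem cell genes lower in knock-in lay between 4 and 8 with an array left out (4 without wild-type replicate 3, where Tbx1 and Tcf7l1 lost their calls, and 8 without wild-type replicate 1, where Lgr6 and Cd34 gained one), was 7 with the mean over probe sets, which called Lgr6 (adjusted p = 0.0381), and 5 with the replicate block, and the higher count was 0 throughout. Nfatc1 changed sign with the mean over probe sets (-0.18) and with arrays centred on basal epidermis genes (-0.16), and its probe set 1417621_at with median centring (0.0052); both scalings move all genes alike, and the reported values lay within their standard errors of 0. Median centring moved the median of all genes by 0.13 and left 1202 genes lower and 2567 higher (31.9% of calls lower), in place of 1907 and 1729 (52.4%). Basal centring moved it by -0.28 and left 4218 lower and 769 higher (84.6%). The replicate block left 1264 genes lower. With an array left out, 1121 to 1635 genes were lower and 1021 to 1608 higher, the fewest lower without wild-type replicate 3 (1144 higher) and the fewest higher without knock-in replicate 3, with 1133 higher without knock-in replicate 1. The other bulge and outer root sheath genes counted 7 lower with median centring, with the replicate block and without knock-in replicate 3, and 7 to 10 with any array left out. The causes were not tested. Dim probe sets near the offset of 16 give differences that are too small.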

Other observations

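Genes of the dermal papilla and of the sebaceous gland were called in both directions. Of 14 dermal papilla and sheath genes 8 were tested, of which 5 rose, 2 fell and 1 did not pass, with a median of 0.76 that was 0.09 without the filter on dim probe sets. Prom1, among those that rose, passed that filter through the knock-in arrays alone. Bmp4, a signal of the papilla that holds bulge cells at rest, went from 404 ± 30.7 to 158 ± 50.4 (-1.31 ± 0.19, adjusted p = 0.00135), while Fgf7, a growth signal to bulge cells, went from 130.4 ± 7.59 to 241 ± 35.1 (0.80 ± 0.13, adjusted p = 0.0022). Vcan, a proteoglycan of the papilla, had a difference of 1.32 ± 0.23, and Sox18, which blood vessels also express, one of 1.65 ± 0.12. Sox18 is also counted among the blood endothelial genes that rose, so these lists are not separate there. Of 7 tested sebaceous gland genes 2 rose, 2 fell and 3 did not pass. The lipid elongase Elovl3 went from 952 ± 378 to 2867 ± 228 (1.64 ± 0.24) and the desaturase Scd3 from 642 ± 268 to 238 ± 36 (-1.31 ± 0.24). Dgat2 and Far2, enzymes of lipid synthesis, had differences of -0.73 and 0.96, and lost their calls without wild-type replicate 3 (adjusted p = 0.0507) and without knock-in replicate 1 or 3 (0.0650 and 0.0875).

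Of 10 tested leukocyte genes 4 rose, 2 fell and 4 did not pass. The summed signals of the 11 on the array were 6007 to 8755 in wild-type and 21143 to 28015 in knock-in. On every knock-in array S100a8 and S100a9 made up most of that sum. Cd3g and Itgax, called lower, passed the filter on dim probe sets through the wild-type arrays alone. S100a8 and S100a9 had differences of 4.26 and 5.72, from 478 ± 105 to 9374 ± 1091 and from 101 ± 28.5 to 6055 ± 814, while Ptprc, the pan-leukocyte gene, was at 466 ± 112 and 469 ± 113.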
